A study of Homo sapiens with 120 samples.

Results

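The genes described here are 36 genes of glycolysis and of the response to low oxygen, followed in TK6 cells exposed to 5 chemicals. TK6 is an established human lymphoblastoid line, grown from B cells. The members were taken by name, and the list was chosen with earlier results of these data known. A gene was measured by a probe set (a group of short probes on the array) that the platform table assigns to 1 gene symbol, and where a gene had several, the one with the highest mean over all arrays stood for it. Of the 36 genes, 35 had such a probe set and 34 were bright enough to be tested, among 14023 tested genes in all. No single-symbol probe set was listed for SLC16A3, the transporter that exports lactate, which was not analysed here. ADM, which encodes the secreted peptide adrenomedullin, lay below the brightness limit, with a mean log2 signal of 5.56 and a range of 5.09 to 5.89 over all 120 arrays, and was not tested.

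Treated cells received formaldehyde (FA, a crosslinker of DNA and protein) at 50, 100 or 200 µM, or methyl methanesulfonate (MMS) at 80, 160 or 320 µM. Others received ethyl methanesulfonate (EMS) at 1, 2 or 4 mM, colcemid (COL) or vincristine (VCR), for 4 h or 24 h. MMS and EMS alkylate DNA and are the clastogens (chromosome breakers) of the study, and colcemid and vincristine bind tubulin and are its aneugens (agents that make chromosomes missegregate). The doses of both aneugens are labelled 1, 2 and 4 µg/ml, but leading zeros in the titles leave it unclear whether a decimal point was lost, so the text ranks them as lowest, middle and highest without a unit. Untreated TK6 cells were kept beside each chemical at 4 h and at 24 h, and no other treatment is labelled. Each of the 40 groups held 3 arrays, from experiments 1 to 3, and the labels say nothing more on separate cultures, so p-values measure the spread between these experiments. Values are log2 signals, and a change is treated minus untreated of the same set and time with its standard error (SE, n = 3 arrays per group). A gene was called where limma's adjusted p was under 0.05. With 3 arrays in a group, their number limits how precise each value is.

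Glycolysis splits glucose into pyruvate, which is reduced to lactate or enters the mitochondria through pyruvate dehydrogenase. When oxygen is scarce the hypoxia-inducible factors (HIF), whose alpha subunits are otherwise hydroxylated by the EGLN enzymes and destroyed through VHL, bind the short DNA element ACGTG or GCGTG. They switch on glucose transporters, most glycolytic enzymes, the kinases that close pyruvate dehydrogenase and genes such as BNIP3, ANKRD37 and VEGFA. Proliferating lymphoid cells run glycolysis at a high rate also when oxygen is present, under control of MYC among other factors.

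Of the tested members, 17 were lower after 24 h with the highest dose of each of the 5 chemicals. The promoters of the 5 with the deepest median change among them are shown because these genes fell with every chemical by the probe sets used. Each is the 250 bases before the first start that RefSeq lists for the gene (build GRCh38.p14), read 5′ to 3′ on the gene's strand, with every ACGTG or GCGTG, or its reverse complement CACGT or CACGC, in capitals. The windows lie at chr4:185396591-185396840 on the plus strand for ANKRD37, chr3:48556804-48557053 on the minus strand for PFKFB4, chr2:74833877-74834126 on the plus strand for HK2, chr2:172555123-172555372 on the plus strand for PDK1 and chr10:131981924-131982173 on the minus strand for BNIP3.
ANKRD37: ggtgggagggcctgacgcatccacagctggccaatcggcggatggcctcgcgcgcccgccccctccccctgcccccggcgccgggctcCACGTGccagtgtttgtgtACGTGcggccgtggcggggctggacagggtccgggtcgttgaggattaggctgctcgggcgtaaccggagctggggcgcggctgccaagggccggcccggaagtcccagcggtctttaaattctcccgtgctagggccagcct
PFKFB4: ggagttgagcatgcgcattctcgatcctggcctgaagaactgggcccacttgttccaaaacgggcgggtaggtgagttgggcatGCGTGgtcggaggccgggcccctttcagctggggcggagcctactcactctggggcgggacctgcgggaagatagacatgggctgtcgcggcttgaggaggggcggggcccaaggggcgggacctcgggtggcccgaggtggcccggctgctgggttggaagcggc
HK2: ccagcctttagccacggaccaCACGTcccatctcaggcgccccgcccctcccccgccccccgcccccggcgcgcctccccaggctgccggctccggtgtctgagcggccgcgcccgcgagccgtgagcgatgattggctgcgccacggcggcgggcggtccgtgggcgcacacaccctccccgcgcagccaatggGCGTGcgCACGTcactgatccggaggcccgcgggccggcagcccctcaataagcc
PDK1: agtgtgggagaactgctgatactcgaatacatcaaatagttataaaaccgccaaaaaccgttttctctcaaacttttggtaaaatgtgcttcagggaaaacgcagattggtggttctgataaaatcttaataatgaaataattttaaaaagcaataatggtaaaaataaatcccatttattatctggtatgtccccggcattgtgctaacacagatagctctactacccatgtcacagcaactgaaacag
BNIP3: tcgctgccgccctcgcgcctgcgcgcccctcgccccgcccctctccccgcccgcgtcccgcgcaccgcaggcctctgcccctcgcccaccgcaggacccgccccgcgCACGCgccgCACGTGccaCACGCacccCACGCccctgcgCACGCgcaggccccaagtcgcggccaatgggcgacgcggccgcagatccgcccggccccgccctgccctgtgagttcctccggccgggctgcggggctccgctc
Counting both strands, the ANKRD37 window held ACGTG 3 times, of which 2 are the strands of 1 palindrome, CACGTG. The HK2 window held ACGTG 2 times and GCGTG 1 time, the BNIP3 window 2 (again 1 palindrome) and 4 times, and the PFKFB4 window GCGTG 1 time. Neither was in the PDK1 window, while the next start listed for PDK1 had ACGTG 2 times. Over the 29 tested members with a window, ACGTG was present in 14 (48.28%), against 18.68% of the first-listed windows of 27305 genes. Those genes were not limited to the tested ones, so the members also differ from them by being bright enough to test. GCGTG was present in 11 (37.93%), against 31.91% of all. Either motif was present in 65.52% of the members' windows and 43.08% of all. The members' windows also had a median of 70.0% G and C, against 58.0% for all, and both motifs are themselves rich in G and C. A match is a description of the letters, not a site of binding.

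Facts of the whole series that touch these values are few. The arrays' medians lay between 6.133 and 6.243, and no pair of arrays was identical. All 5 B cell markers with a probe set were above the brightness limit, with gene means of 8.69 to 11.96. For other cell types, 4 of 4 T cell, 1 of 4 monocyte, 2 of 4 epithelium and 3 of 4 fibroblast markers reached the limit, and so did the 1 of 4 red blood cell markers with a probe set. Gene means were 5.77 to 7.04 for T cell, 4.90 to 6.615 for monocyte, 3.61 to 8.535 for epithelium and 5.15 to 8.355 for fibroblast markers. A counted marker could thus have a mean below the limit of 6.18. Some moved with the members at 24 h. The red blood cell marker had 7.76 to 7.99 at the highest dose of FA, against 8.24 to 8.49 in untreated cells, 7.73 to 7.855 against 8.25 to 8.49 for MMS and 7.74 to 7.835 against 8.22 to 8.60 for EMS. It had 8.09 to 8.19 against 8.22 to 8.51 for colcemid and 7.98 to 8.16 against 8.35 to 8.565 for vincristine. It was thus lower without overlap in all 5 sets. The mean of the 5 B cell markers was 9.62 to 9.75 with FA, against 10.05 to 10.23 in untreated cells, 9.26 to 9.42 against 9.91 to 10.04 for MMS, 9.80 to 9.86 against 10.13 to 10.21 for EMS and 9.92 to 10.01 against 10.05 to 10.21 for vincristine. With colcemid the groups overlapped (9.96 to 10.07 against 10.02 to 10.155). The other lists' means moved in fewer sets. The T cell mean was lower with MMS (6.17 to 6.29, against 6.30 to 6.47 in untreated cells), and the monocyte mean higher with FA (5.60 to 5.725, against 5.44 to 5.53). The epithelium mean was higher with FA (6.19 to 6.24, against 6.14 to 6.18 in untreated cells), colcemid (6.36 to 6.40, against 6.105 to 6.23) and vincristine (6.32 to 6.40, against 6.22 to 6.29), and the fibroblast mean overlapped in each set. The part of these markers in the results was not tested. In bulk RNA, fewer cells expressing a gene and less RNA per cell cannot be told apart. RNA quality was read as the signal of the 3′ minus the 5′ control probe set of ACTB, which grows as RNA is degraded or incompletely copied. At the highest dose at 24 h it was 1.88 ± 0.26 with MMS against 0.942 ± 0.0792 in untreated cells, 0.768 ± 0.0697 against 0.481 ± 0.0239 for FA and 0.664 ± 0.0342 against 0.521 ± 0.0715 for EMS (mean ± SD, n = 3). It was 0.512 ± 0.0224 against 0.540 ± 0.0346 for colcemid and 0.499 ± 0.0387 against 0.463 ± 0.0327 for vincristine. For the GAPDH controls the same value was 0.340 ± 0.0415 against 0.222 ± 0.0104 for MMS and 0.223 ± 0.0328 against 0.161 ± 0.0099 for FA. With EMS it was 0.163 ± 0.0324 against 0.120 ± 0.0251. The aneugens gave 0.158 ± 0.0108 against 0.135 ± 0.015 (colcemid) and 0.1585 ± 0.0094 against 0.127 ± 0.0128 (vincristine). The part of RNA quality in the results was not tested. The untreated FA array of experiment 3 at 4 h stood apart, with the lowest mean correlation with its group mates (0.99426) and a 3′ minus 5′ value of 0.680, against 0.350 and 0.299 in the others, and the FA results at 4 h are given with and without it. In a table whose highest value is 14.73, 7 members (ALDOA, TPI1, GAPDH, PGK1, PGAM1, ENO1 and LDHA) had means above 13.

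After 24 h most of these genes were lower in cells treated with any of the 5 chemicals at its highest dose. With 200 µM FA 27 of the 34 tested members fell and 2 rose, where 23.9% of all tested genes fell and 23.8% rose, and the members' median change was -0.38. With 320 µM MMS 26 fell and 2 rose (all genes 27.7% and 30.8%), with a median of -0.52. With 4 mM EMS 25 fell and 1 rose (all genes 23.6% and 27.8%), with a median of -0.40. Colcemid lowered 22 members and raised 1 (all genes 18.3% and 18%, median of the members -0.22), and vincristine lowered 24 and raised 2 (all genes 18.2% and 17.5%, median -0.26). The median over all tested genes stayed within -0.04 and 0.08 in the 30 dose comparisons.

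Because each chemical had its own untreated cells, the 5 highest doses could be read side by side. Called lower with all 5 were 17 of 34 members, against 5.51% of all tested genes, and no member was higher with all 5, against 6.37%. The 17 were HK2, GPI, PFKL, PFKM, PFKP, PFKFB4, ALDOA, ALDOC, TPI1, PGAM1, LDHA, PDK1, BNIP3, EGLN1, P4HA1, ANKRD37 and HILPDA. They include each of the 7 tested enzymes of upper glycolysis. The 17 hold for the probe set chosen for each gene. Of them, 7 had no other bright probe set, and in 4 (ALDOA, PDK1, BNIP3 and HILPDA) every other one was also lower with all 5. In the remaining 6 (HK2, PFKL, PFKP, PFKFB4, TPI1 and EGLN1) no other probe set was lower with all 5. Falls of at least 2-fold were seen for 5 members with FA, 6 with MMS, 6 with EMS, 1 (PDK1) with colcemid and 4 with vincristine.

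**Figure D1:**
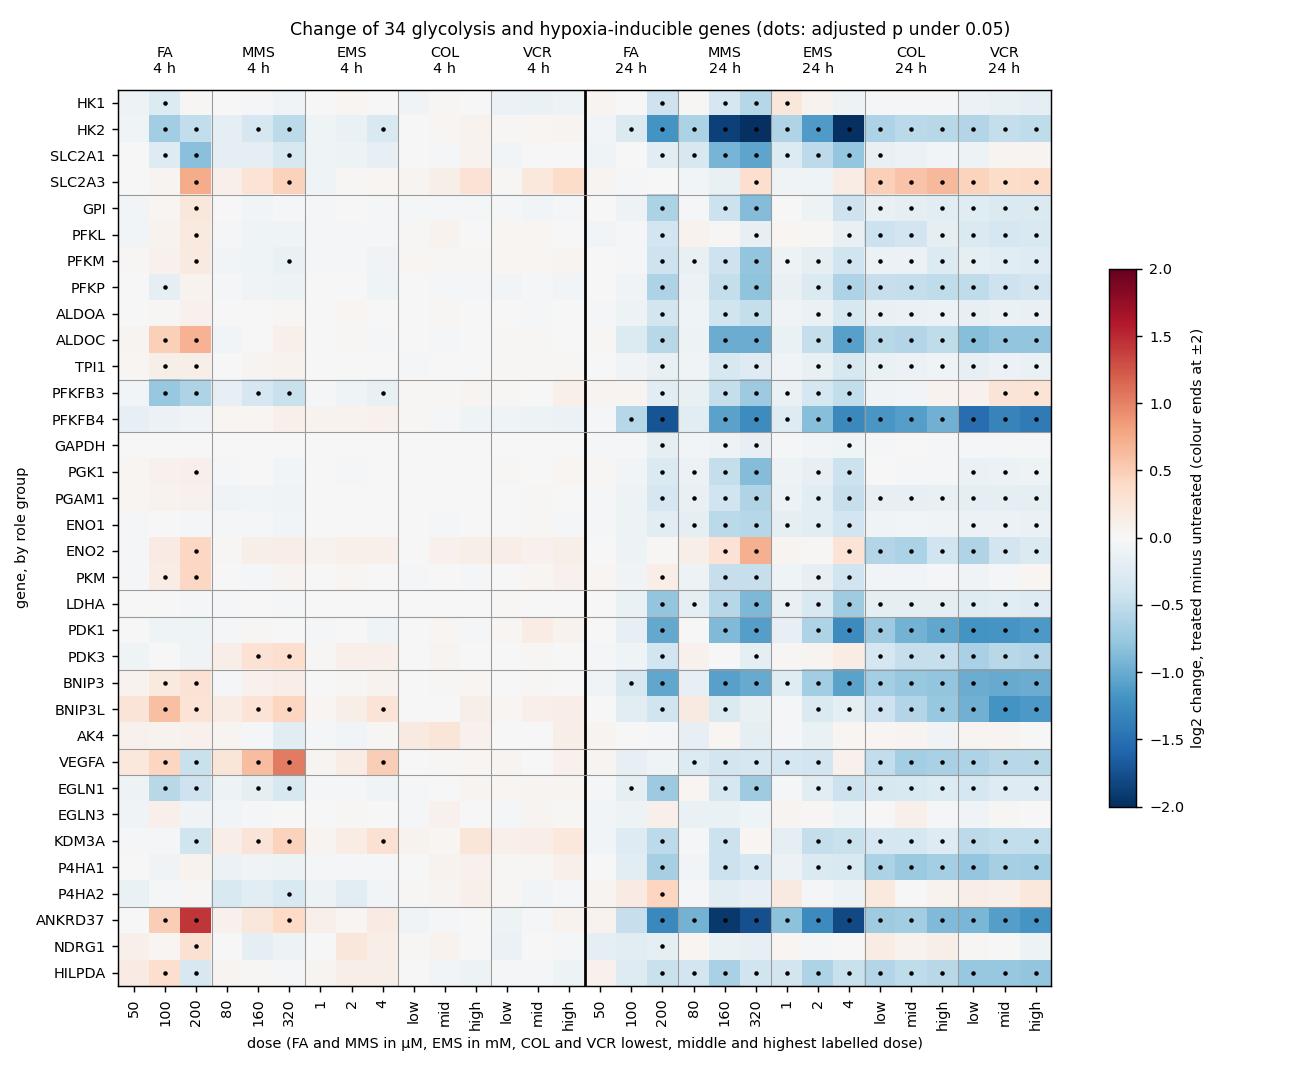
Log2 change, treated minus untreated of the same set and time, of the 34 tested members (rows, in groups by role) in the 30 dose comparisons (columns, 4 h left and 24 h right of the thick line), with a dot where the adjusted p was under 0.05 and the colour ending at 2 in either direction. On the right side the highest dose is mostly blue with every chemical, HK2 with MMS reaching -2.77, while 50 µM FA has no dot. At 4 h the dots lie with FA, MMS and EMS, and none with colcemid or vincristine.

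At the entry of glycolysis, HK2, one of the hexokinases that trap glucose in the cell as its phosphate, fell most. Its signals after 24 h of 320 µM MMS were 8.47, 8.39 and 8.41, against 11.19, 11.18 and 11.20 in untreated cells. With 4 mM EMS they were 9.06, 9.09 and 9.13, against 11.08, 11.22 and 11.20 in untreated cells. The groups lay far apart in both sets, and the changes were -2.77 ± 0.061 (adjusted p = 7.86e-19, 6.83-fold lower) with MMS and -2.07 ± 0.0533 (adjusted p = 1.29e-17) with EMS. With 200 µM FA the signals were 10.004, 10.10 and 10.02, against 11.18, 11.35 and 11.18 (change -1.20 ± 0.0751, adjusted p = 2.43e-11), again without overlap. Colcemid (-0.56 ± 0.0626) and vincristine (-0.50 ± 0.0714) lowered HK2 by less. The other HK2 probe sets, with means of 7.31 and 6.50, also fell with MMS (-0.78 and -0.88) and EMS (-0.34 and -0.72), but neither was called with FA or vincristine, and with colcemid 1 of them was (-0.26).

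HK1, the hexokinase of most tissues, fell with FA (-0.41 ± 0.0695) and MMS (-0.57 ± 0.0691) only, among the highest doses, and its values with EMS, colcemid and vincristine were -0.10, -0.016 and -0.19. SLC2A1, the glucose transporter GLUT1, had signals of 7.39, 7.73 and 7.56 with 320 µM MMS, against 8.59, 8.62 and 8.64 in untreated cells. It also fell with EMS (-0.77 ± 0.0627) and FA (-0.23 ± 0.0615, and -0.14 without a call when experiment 2 was left out), and with the aneugens it differed by -0.057 and 0.056, neither called. SLC2A3, the high-affinity transporter GLUT3, went the other way. Its signals were 7.95, 8.11 and 7.83 with the highest dose of colcemid, against 7.23, 7.45 and 7.28 in untreated cells, all treated arrays above all untreated ones (change 0.64 ± 0.0939, adjusted p = 1.38e-05). With vincristine they were 7.57, 8.05 and 7.81, against 7.09, 7.74 and 7.44 (change 0.39 ± 0.142, adjusted p = 0.0382), where the groups overlapped but experiments 1 to 3 each moved up. Both other SLC2A3 probe sets were also called higher with either aneugen, whereas the rise with MMS (0.34 ± 0.095) was not found with them (-0.12 and 0.085) and was 0.21 without a call when experiment 3 was left out.

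With the probe sets used, all 7 enzymes of upper glycolysis fell with all 5 chemicals. They are GPI, which isomerises glucose phosphate, PFKL, PFKM and PFKP, the subunits of phosphofructokinase, the aldolases ALDOA and ALDOC, and TPI1, the triose phosphate isomerase. Their median change was -0.41 with FA, -0.79 with MMS, -0.40 with EMS, -0.23 with colcemid and -0.29 with vincristine. ALDOC fell most with MMS, EMS, colcemid (by little more than PFKP) and vincristine. Its signals were 9.25, 9.13 and 9.14 with 4 mM EMS, against 10.22, 10.35 and 10.23 in untreated cells, and 9.52, 9.51 and 9.43 with vincristine, against 10.03, 10.52 and 10.27. No treated array reached an untreated one in either set, and the changes were -1.09 ± 0.0575 (adjusted p = 1.25e-12) and -0.78 ± 0.0824 (adjusted p = 1.54e-07). GPI changed by -0.86 ± 0.0538 with MMS and -0.63 ± 0.0447 with FA, against -0.41, -0.23 and -0.29 with EMS, colcemid and vincristine. Over the 5 chemicals PFKP changed by -0.38 to -0.80, PFKM by -0.26 to -0.79, PFKL by -0.15 to -0.38, ALDOA by -0.12 to -0.47 and TPI1 by -0.082 to -0.31. For PFKP a second probe set with a mean of 5.95, below the limit, was called lower with EMS alone (-0.27), with 0.13 for FA and 0.034 for colcemid. Neither of the 2 other TPI1 probe sets was called with colcemid (-0.064 and -0.12), and 1 of them was also not called with EMS (-0.090) or vincristine (-0.13). The other PFKL probe set was not called with MMS (-0.12).

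The dual enzymes PFKFB3 and PFKFB4 make and break the fructose bisphosphate that activates phosphofructokinase. They were called in opposite directions with vincristine alone. PFKFB4, a classical HIF target, had signals of 7.31, 7.26 and 7.38 with 200 µM FA, against 9.04, 9.29 and 8.82 in untreated cells. With vincristine it had 7.45, 7.54 and 7.47, against 8.61, 9.21 and 8.88. The treated arrays sat more than 1 log2 unit below the lowest untreated array in both sets, and the changes were -1.73 ± 0.149 (adjusted p = 3.46e-09) and -1.41 ± 0.106 (adjusted p = 1.08e-09). MMS, EMS and colcemid gave -1.25 ± 0.107, -1.29 ± 0.071 and -0.96 ± 0.107, all called. Another PFKFB4 probe set (mean 6.30) fell with FA, MMS and EMS (-0.33, -0.37 and -0.28) and was not called with colcemid or vincristine (-0.047 and -0.027). PFKFB3 had signals of 9.40, 9.36 and 9.60 with MMS, against 10.23, 10.17 and 10.13 in untreated cells, and 10.16, 10.36 and 10.25 with vincristine, against 9.93, 10.003 and 9.997. It was thus lower in every MMS array (-0.72 ± 0.0579) and higher in every vincristine array (0.28 ± 0.0588, adjusted p = 0.000671). PFKFB3 was also called lower with FA and with EMS (mean 9.61 with EMS, against 10.11 in untreated cells). With colcemid it was not called (mean 10.04, against 9.97).

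Of the 6 tested members of lower glycolysis, 5 fell with MMS and with EMS, 4 with FA and with vincristine, and 2 with colcemid. PGK1, phosphoglycerate kinase, changed by -0.86 ± 0.0381 with MMS and -0.44 ± 0.0377 with EMS, and PGAM1, phosphoglycerate mutase, by -0.60 ± 0.0424 and -0.46 ± 0.0309. ENO1, the common enolase, changed by -0.58 ± 0.0402 with MMS and -0.39 ± 0.0345 with EMS. GAPDH, often used as a loading control, fell by 0.18 on the log2 scale with FA, 0.16 with MMS and 0.083 with EMS, and its changes with colcemid (-0.034) and vincristine (-0.045) were not called. PKM, pyruvate kinase, fell with MMS (-0.46 ± 0.0834) and EMS (-0.39 ± 0.0564). Its call with FA (0.13 ± 0.0546) had the opposite sign in the other PKM probe set (-0.14, not called). ENO2, the enolase best known from neurons, had signals of 10.87, 10.80 and 10.87 with MMS, against 10.15, 10.34 and 9.92 in untreated cells. With colcemid it had 10.20, 10.25 and 10.18, against 10.60, 10.66 and 10.58. The MMS arrays lay above and the colcemid arrays below their untreated arrays without overlap (0.71 ± 0.0779, adjusted p = 5.99e-08, and -0.40 ± 0.0518, adjusted p = 3.06e-06).

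At the branch after pyruvate, LDHA, the lactate dehydrogenase subunit, had signals of 13.21, 13.17 and 13.11 with MMS, against 14.08, 14.09 and 14.03 in untreated cells, and 13.78, 13.79 and 13.79 with colcemid, against 13.98, 13.94 and 13.96. No groups overlapped, and the arrays of a group agreed within 0.11 log2 units. The changes were -0.90 ± 0.0414 (adjusted p = 6.1e-14) and -0.17 ± 0.0276 (adjusted p = 3.47e-05). PDK1, a kinase that switches pyruvate dehydrogenase off, had signals of 8.76, 8.93 and 8.84 with 4 mM EMS, against 10.22, 10.07 and 10.04 in untreated cells, and 8.65, 8.66 and 8.52 with vincristine, against 9.63, 9.86 and 9.76. It fell with each chemical, and the changes were -1.03 ± 0.0708 (FA), -1.10 ± 0.0857 (MMS), -1.27 ± 0.0964 (EMS), -1.04 ± 0.0637 (colcemid) and -1.14 ± 0.0649 (vincristine). PDK3, another such kinase, fell with colcemid (-0.46 ± 0.0491), vincristine (-0.59 ± 0.0779), FA (-0.38 ± 0.0744) and MMS (-0.18 ± 0.0643). Its probe sets disagreed for MMS, 1 of the other 4 being called higher (0.22). With FA and vincristine 1 of the other 4 was called lower (-0.20 and -0.29). With colcemid those called lower gave -0.30 and -0.35. The rest, not called, gave -0.11 to 0.0047 with FA, -0.19 to -0.18 with vincristine and -0.19 and -0.16 with colcemid.

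BNIP3 and BNIP3L, receptors that mark mitochondria for removal, are HIF targets. BNIP3 had signals of 11.31, 11.28 and 11.29 with FA, against 12.35, 12.44 and 12.19 in untreated cells, and 11.19, 11.20 and 11.14 with vincristine, against 12.06, 12.29 and 12.17. It changed by -1.03 ± 0.0713 (FA), -1.001 ± 0.0722 (MMS), -1.07 ± 0.0763 (EMS), -0.79 ± 0.0369 (colcemid) and -0.99 ± 0.0525 (vincristine), and its other probe set by -0.77 to -1.23, all called. BNIP3L had 9.01, 9.29 and 9.18 with vincristine, against 10.02, 10.54 and 10.36 in untreated cells (-1.15 ± 0.0974, adjusted p = 5.97e-09). With MMS it had 10.57, 10.31 and 10.51, against 10.55, 10.74 and 10.56, with overlapping groups (-0.15 ± 0.0787, not called), and with EMS it fell by 0.20 on the log2 scale. Its other probe set fell with colcemid and vincristine (-0.46 and -0.88) but not with FA or EMS (0.068 and 0.22, not called). AK4, a mitochondrial adenylate kinase, was called in none of the 30 dose comparisons.

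Of the remaining HIF targets, ANKRD37, an ankyrin repeat protein, was among the deepest falls. Its signals were 7.59, 7.64 and 7.69 with EMS, against 9.38, 9.59 and 9.35 in untreated cells, and 7.82, 7.89 and 7.86 with MMS, against 9.48, 9.72 and 9.63. The aneugens gave -0.89 ± 0.0986 (colcemid) and -1.18 ± 0.113 (vincristine), beside -1.80 ± 0.102 for EMS, -1.75 ± 0.106 for MMS and -1.29 ± 0.143 for FA. HILPDA, which holds back the breakdown of stored fat, changed by -0.45, -0.40, -0.45, -0.55 and -0.79 with FA, MMS, EMS, colcemid and vincristine. P4HA1, a subunit of the collagen prolyl hydroxylase, changed by -0.66, -0.35, -0.31, -0.68 and -0.68 in the same order. EGLN1, the oxygen sensor that marks HIF for destruction, fell with FA (-0.73 ± 0.0494), MMS (-0.72 ± 0.0502) and EMS (-0.43 ± 0.0486) in each of its 3 bright probe sets. Its calls with colcemid (-0.27) and vincristine (-0.25) rest on the probe set used alone, since the others gave -0.033 and -0.12 with colcemid and -0.052 and -0.043 with vincristine, none called. KDM3A, a histone demethylase, fell with 4 of them and had similar levels with MMS (10.31, 10.28 and 10.23, against 10.17, 10.36 and 10.14 in untreated cells, change 0.044).

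VEGFA, the secreted growth factor of blood vessels, had signals of 9.55, 9.61 and 9.58 with colcemid, against 10.33, 10.19 and 10.15 in untreated cells, every treated array below every untreated one (-0.64 ± 0.0579). It also fell with vincristine (-0.56 ± 0.0548) and MMS (-0.33 ± 0.0731), and with FA and EMS its changes were -0.092 and 0.089, not called. Its 3 other probe sets gave -0.13, -0.14 and -0.13 with colcemid, 1 of them called, and -0.18, -0.35 and -0.31 with vincristine, the first not called. With MMS 1 was called higher (0.17) and 1 lower (-0.26). P4HA2, a sister subunit of P4HA1, rose with FA (0.43 ± 0.0954) and was not called with the others. NDRG1, a stress-induced protein, fell with FA (-0.18 ± 0.0644, adjusted p = 0.0219) alone at 24 h. EGLN3, a second oxygen-sensing hydroxylase, was called in none of the 30 dose comparisons. NDRG1 (mean 6.39), EGLN3 (6.34), P4HA2 (6.25) and AK4 (6.15) lay close to the brightness limit of 6.18.

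**Figure D2:**
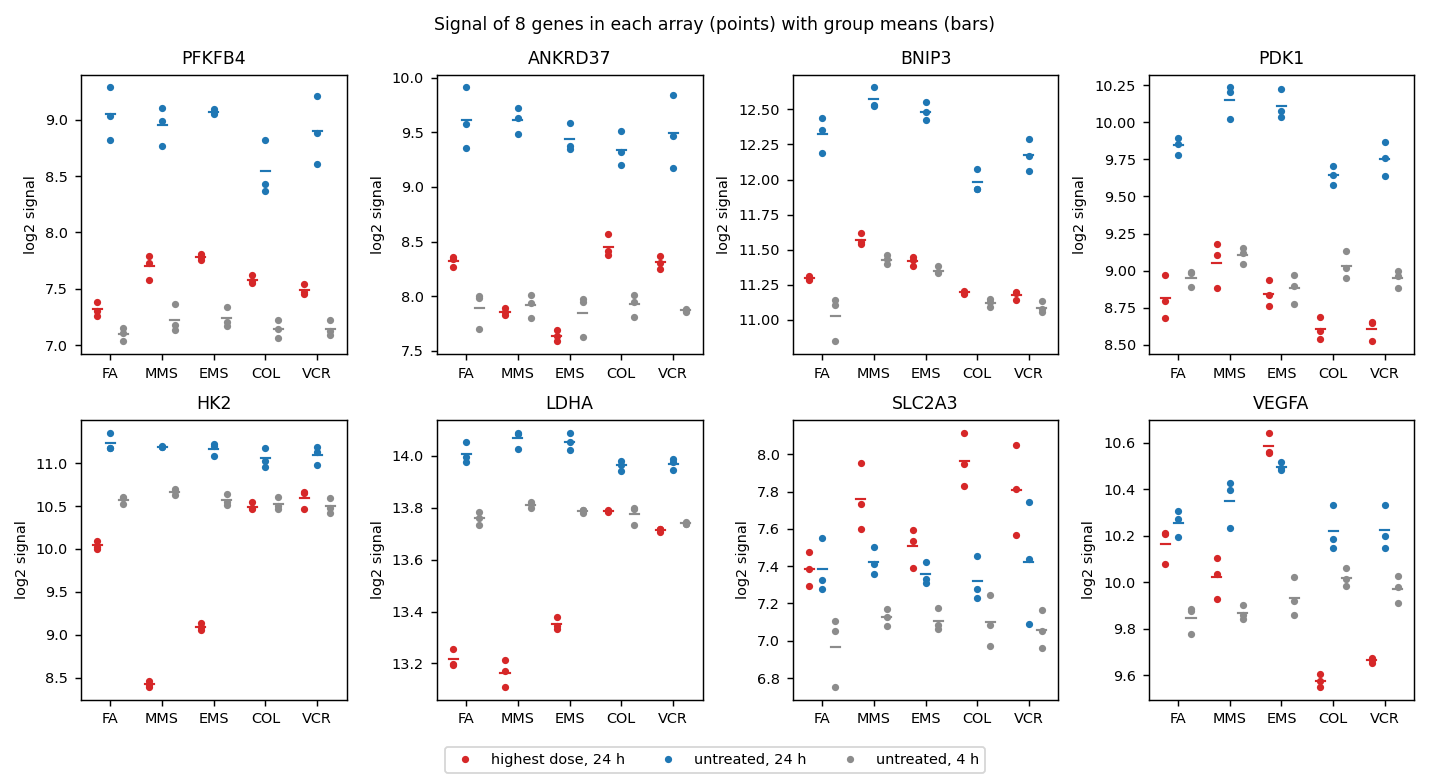
Log2 signal of 8 members in each array (points, 3 per group, bars at the group means) at the highest dose after 24 h, untreated after 24 h and untreated after 4 h, for each chemical's set. For PFKFB4, ANKRD37, BNIP3 and PDK1 the untreated arrays at 24 h stand above both other groups in all 5 sets, HK2 and LDHA at the highest dose lie below untreated cells of either time with FA, MMS and EMS, and SLC2A3 and VEGFA differ between the chemicals.

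A second comparison concerned untreated cells, which were sampled at 4 h and 24 h. Most members were higher in untreated cells at 24 h. In the FA set 22 of 34 rose and 3 fell (all genes 14.5% and 14.9%), and in the MMS set 20 rose and 1 fell (all genes 11.5% and 20.6%). The EMS set had 20 higher and 1 lower (all genes 14.1% and 15.8%), the colcemid set 20 and 5 (16.4% and 18.5%) and the vincristine set 19 and 2 (16.9% and 16%). The members' medians were 0.21, 0.22, 0.20, 0.16 and 0.16 in the same order. In the colcemid set the 25 called members became 14 without experiment 1. Higher at 24 h in all 5 untreated sets were 14 of 34 members, against 4.3% of all tested genes: HK2, GPI, PFKM, PFKFB4, ALDOC, LDHA, PDK1, BNIP3, BNIP3L, VEGFA, KDM3A, P4HA1, ANKRD37 and HILPDA.

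PFKFB4 rose most in the FA, MMS, EMS and vincristine sets, and ANKRD37 in the colcemid set. Untreated cells of the EMS set had PFKFB4 signals of 9.05, 9.09 and 9.07 at 24 h, against 7.17, 7.34 and 7.20 at 4 h (1.84 ± 0.071, adjusted p = 1.2e-13). ANKRD37 had 9.20, 9.51 and 9.31 at 24 h in the colcemid set, against 8.02, 7.95 and 7.81 at 4 h (1.42 ± 0.0986, adjusted p = 1.22e-09). The times did not overlap for either gene, and over the 5 sets PFKFB4 rose by 1.40 to 1.95 and ANKRD37 by 1.42 to 1.72. BNIP3L had 10.46, 10.50 and 10.41 at 24 h in the EMS set, against 8.88, 8.68 and 8.72 at 4 h (1.70 ± 0.0788), and its rise was smallest in the colcemid set (0.82 ± 0.0811). BNIP3, PDK1, HILPDA, KDM3A and P4HA1 rose by 0.47 to 1.30 over the 5 sets. Among the glycolytic enzymes ALDOC rose by 0.32 to 0.64, LDHA by 0.19 to 0.27, GPI by 0.14 to 0.25 and PFKM by 0.15 to 0.21. In the FA set PFKM differed by 0.12, not called, without the untreated array of experiment 3 at 4 h. TPI1, GAPDH, ENO2 and EGLN3 were called in none of the 5 sets. P4HA2 fell in all 5, by between -0.50 and -0.82, and PFKFB3 in 3 of them (FA, colcemid and vincristine, -0.24, -0.23 and -0.24). The HK2 rise of 0.53 to 0.66 held for the probe set used alone, since both others were called lower at 24 h in the FA, MMS, EMS and vincristine sets. The 3′ minus 5′ value of ACTB was also higher at 24 h, by group means of 0.463 to 0.942 against 0.287 to 0.837 at 4 h. The red blood cell marker was higher at 24 h in each set, 8.22 to 8.60 over the 15 untreated arrays against 7.82 to 8.19 at 4 h. The mean of the B cell markers was higher without overlap in the MMS, EMS and vincristine sets (9.91 to 10.21 over their arrays, against 9.73 to 10.04 at 4 h), and that of the epithelium markers lower in the FA, colcemid and vincristine sets (6.105 to 6.29, against 6.45 to 6.67). The part of these values in the rise was not tested.

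The comparisons of treated with untreated cells at 24 h and of untreated cells over time share the untreated arrays of 24 h. The treated cells of 24 h were therefore also set against the untreated cells of 4 h of the same set, a comparison added after the values were seen. FA-treated cells had PFKFB4 signals of 7.31, 7.26 and 7.38 at 24 h, against 7.11, 7.03 and 7.15 in untreated cells at 4 h. The difference of 0.22 ± 0.149 (limma, adjusted p = 0.26) was not called. With MMS, EMS, colcemid and vincristine PFKFB4 was called higher than in untreated cells at 4 h. Its means with EMS, colcemid and vincristine were 7.78, 7.58 and 7.49, against 7.24, 7.14 and 7.14. For PDK1 the differences were -0.14, -0.053 and -0.038 with FA, MMS and EMS, none called, and -0.43 and -0.34 with colcemid and vincristine, both called. BNIP3 lay above the 4 h level by 0.26 with FA (0.17, still called, without the untreated array of experiment 3), and its differences of 0.066 to 0.14 with the others were not called. HK2 and LDHA lay below it with MMS (-2.25 ± 0.061 and -0.65 ± 0.0414) and EMS (-1.48 ± 0.0533 and -0.44 ± 0.0325), and neither was called with colcemid (-0.033 and 0.013) or vincristine (0.10 and -0.026). BNIP3L lay above it with FA, MMS and EMS (1.06, 1.47 and 1.499), and at 0.06 and -0.009 with the aneugens. In all, 8 members were higher and 15 lower with FA (all genes 23% and 21.9%), and 7 and 18 with MMS (27.8% and 26.8%). Without the untreated FA array of experiment 3, SLC2A3, ANKRD37 and HILPDA lost their higher calls with FA (0.31, 0.33 and 0.23). P4HA2 was then called lower (-0.26). EMS gave 10 higher and 16 lower (27.3% and 23.6%), colcemid 4 and 12 (18.7% and 20.2%) and vincristine 5 and 8 (18.5% and 17.3%).

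With FA, MMS and EMS more members fell at the upper doses at 24 h. With FA no member was called at 50 µM in limma (all genes 0%). At an unadjusted p under 0.05 there was 1 member, beside 385 of 14023 genes. At 100 µM 4 fell (HK2 -0.29, PFKFB4 -0.57, BNIP3 -0.32 and EGLN1 -0.18), against 0.385% of all genes lower and 3.42% higher. The block on experiment gave 10 members, and leaving out an experiment gave 0 to 1. With MMS 10 of 34 fell at 80 µM (10.9% of all genes) and 26 at 160 µM (21.6%), where 1 rose (25.7%). The 80 µM count was 4 without experiment 1 and 5 without experiment 2. With EMS 12 fell and 1, HK1, rose at 1 mM (8.94% and 15.4% of all genes), and 23 fell at 2 mM (14.7% lower and 19.9% higher). The 13 called at 1 mM became 5 without experiment 1 and 8 without experiment 3. HK2 followed the dose closely, with changes of -0.63, -1.87 and -2.77 over the MMS doses and -0.60, -1.14 and -2.07 over the EMS doses. ANKRD37 was already lowered at the lowest doses, by -0.94 ± 0.106 with 80 µM MMS and -0.82 ± 0.102 with 1 mM EMS.

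With the aneugens the counts were alike at each labelled dose. Colcemid lowered 23 members and raised 1 at its lowest labelled dose (20.7% and 16.6% of all genes), and 22 and 1 at the middle one (20.3% and 17.4%). Vincristine lowered 24 and raised 1 at the lowest (20.8% and 16.6%), and 24 and 2 at the middle labelled dose (19.5% and 17.4%). PFKFB4 changed by -1.53, -1.33 and -1.41 over the vincristine doses and by -1.17, -1.10 and -0.96 over the colcemid doses. The highest dose was compared with the lowest directly, in a test added after the values were seen. With FA 25 members were lower and 1 higher at the highest dose (all genes 24.1% and 22.2%), 25 and 2 with MMS (24.8% and 27.6%), and 24 and 3 with EMS (22% and 21.8%). For colcemid the counts were 3 and 2 (5.51% and 8.17%) and for vincristine 0 and 3 (5.44% and 8.17%). These 2 totals were 1 to 2 and 0 to 1 when an experiment was left out. With colcemid PDK1, PFKM and BNIP3L were lower (-0.34 ± 0.0811 for BNIP3L) and PFKL and ENO2 higher, and with vincristine SLC2A1, PFKFB3 and ENO2 were higher (0.31 ± 0.0551 for ENO2).

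**Figure D3:**
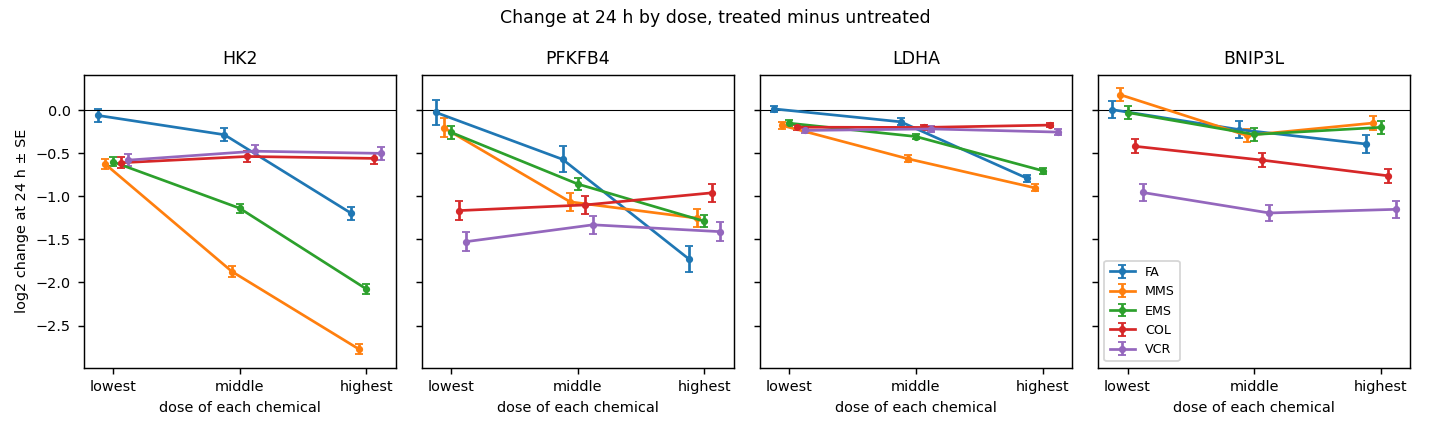
Log2 change at 24 h (treated minus untreated, ± SE, n = 3) of HK2, PFKFB4, LDHA and BNIP3L at the lowest, middle and highest dose of each chemical. The FA, MMS and EMS lines run down with dose for HK2, PFKFB4 and LDHA, the colcemid and vincristine lines stay level for these genes, and for BNIP3L both aneugens lie below the other chemicals at each dose.

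The 2 classes were then set against each other, as the mean change of the highest doses of MMS and EMS minus that of colcemid and vincristine. At 24 h 21 members were lower with the clastogens and 6 higher, where 24.7% and 29.9% of all tested genes were. The largest differences downward were those of HK2 (-1.89 ± 0.0625, adjusted p = 8.12e-39), SLC2A1 (-0.91 ± 0.0589), PFKFB3 (-0.78 ± 0.0552), ANKRD37 (-0.74 ± 0.111), LDHA (-0.59 ± 0.0253) and PGK1 (-0.58 ± 0.0275). Higher with the clastogens were ENO2 (0.84 ± 0.0614, adjusted p = 4.04e-20), BNIP3L (0.78 ± 0.0878), PDK3 (0.50 ± 0.066), VEGFA (0.48 ± 0.0602), P4HA1 (0.35 ± 0.057) and HILPDA (0.24 ± 0.076). Of the HIF targets PFKFB4 (-0.087 ± 0.104, adjusted p = 0.504) and PDK1 (-0.093 ± 0.0815, adjusted p = 0.351) did not pass the test. Higher here can mean a smaller fall, as for P4HA1 and HILPDA, which fell at the highest dose of each chemical. Each class holds 2 chemicals, and the p-values measure the spread between arrays, not between chemicals of a class. The doses of the classes are not matched in effect, so the sizes hold for these doses alone.

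**Figure D4:**
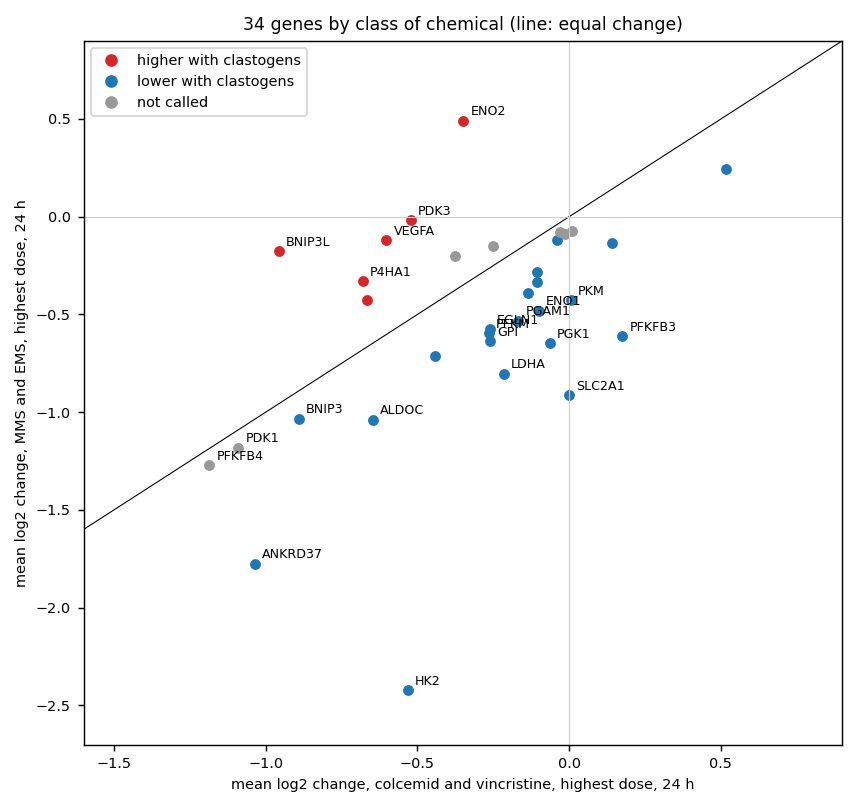
Mean log2 change of the 34 members at 24 h with the highest doses of MMS and EMS (vertical) against that with the highest doses of colcemid and vincristine (horizontal), with the diagonal marking equal change and colours marking the test of the difference. HK2 lies farthest below the diagonal, ENO2 and BNIP3L farthest above it, and PFKFB4 and PDK1 close to it at the low end of both axes.

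At 4 h the aneugens called no member at any dose in limma. Of all tested genes 0%, 0.0642% and 0.913% were called over the colcemid doses and 0%, 0.00713% and 0.25% over the vincristine doses. At an unadjusted p under 0.05 there were 0, 1 and 3 members over the colcemid doses, beside 265, 367 and 1151 of 14023 genes. Over the vincristine doses there were 1, 1 and 2 members, beside 511, 567 and 1112 genes. With experiment as a block SLC2A3 and KDM3A were called at the highest colcemid dose and SLC2A3 at the highest vincristine dose. The lowest doses of FA and MMS and the 2 lower doses of EMS also called none (all genes 0.82%, 1.6%, 0.143% and 1.06%). Their members at an unadjusted p under 0.05 numbered 3, 6, 0 and 3, beside 1599, 1566, 589 and 1286 of 14023 genes. With the block VEGFA was called at 50 µM FA. Members moved both ways at 4 h with the rest, in shares near those of all genes, so the counts say little of the list and single members are described. At 100 µM FA 8 of 34 rose and 6 fell (all genes 20.9% and 19.8%). At 200 µM FA the counts were 13 and 7 (29.6% and 24.2%), at 160 µM MMS 4 and 3 (6.97% and 6.57%), at 320 µM MMS 6 and 6 (15.3% and 13.4%) and at 4 mM EMS 3 and 2 (5.55% and 4.05%). When an experiment was left out, the totals were 7 to 13 at 100 µM FA, 3 to 4 at 160 µM MMS and 2 at 4 mM EMS.

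Early FA split the HIF targets. ANKRD37 had signals of 9.34, 9.24 and 9.39 after 4 h of 200 µM FA, against 8.001, 7.99 and 7.70 in untreated cells, well apart and opposite to its fall at 24 h (1.42 ± 0.143, adjusted p = 3.37e-08). SLC2A3 had 7.59, 7.81 and 7.73, against 7.10, 7.05 and 6.75 in untreated cells (0.74 ± 0.134, adjusted p = 8.69e-05), and ALDOC rose by 0.69 ± 0.0791. SLC2A1 had 7.44, 7.35 and 7.30, against 8.24, 8.22 and 8.12 (-0.83 ± 0.0615, adjusted p = 2.4e-10), all treated arrays below. Also lower were PFKFB3 (-0.62 ± 0.064), HK2 (-0.49 ± 0.0751), EGLN1 (-0.42 ± 0.0494), KDM3A (-0.40 ± 0.0859) and HILPDA (-0.32 ± 0.0994). PKM was called higher (0.42 ± 0.0546), while its other probe set fell by 1.15 on the log2 scale. VEGFA was called lower at 200 µM (-0.45 ± 0.06) and higher at 100 µM (0.43 ± 0.06), and its 3 other probe sets gave 0.0078 to 0.19 at 200 µM, so its direction there depends on the probe set. Without the untreated array of experiment 3 none of the FA counts moved by more than 1.5 times. The calls of PFKM, PGK1 and BNIP3L at 200 µM and 4 h were lost, as were 6 in untreated cells over time, PFKM among them.

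The clastogens raised VEGFA at 4 h. Its signals were 10.86, 10.93 and 10.92 with 320 µM MMS, against 9.90, 9.86 and 9.84 in untreated cells, and 10.43, 10.46 and 10.40 with 4 mM EMS, against 10.02, 9.86 and 9.92. Treated and untreated arrays did not overlap in either set, with changes of 1.03 ± 0.0731 (adjusted p = 8.69e-10) and 0.50 ± 0.0542 (adjusted p = 2.84e-06). Its other probe sets also rose with MMS (0.32 to 0.40), and with MMS at 160 µM it rose by 0.61. BNIP3L and KDM3A rose with both (0.43 ± 0.0787 and 0.46 ± 0.0733 with MMS, 0.28 ± 0.0788 and 0.30 ± 0.0856 with EMS), and SLC2A3, ANKRD37 and PDK3 with MMS (0.46 ± 0.095, 0.40 ± 0.106 and 0.34 ± 0.0643). Of the 4 other PDK3 probe sets 1 was called higher as well (0.25), and 3 had the opposite sign without a call. HK2 and PFKFB3 were already lower, HK2 by -0.53 ± 0.061 with MMS and -0.31 ± 0.0533 with EMS, PFKFB3 by -0.45 ± 0.0579 and -0.15 ± 0.0451. The other HK2 probe sets were not called at 4 h with either (-0.068 to -0.35). Between the classes at 4 h 3 members were higher and 6 lower with the clastogens (all genes 10.9% and 12.7%), led by VEGFA (0.70 ± 0.0602) and HK2 (-0.48 ± 0.0625).

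**Figure D5:**
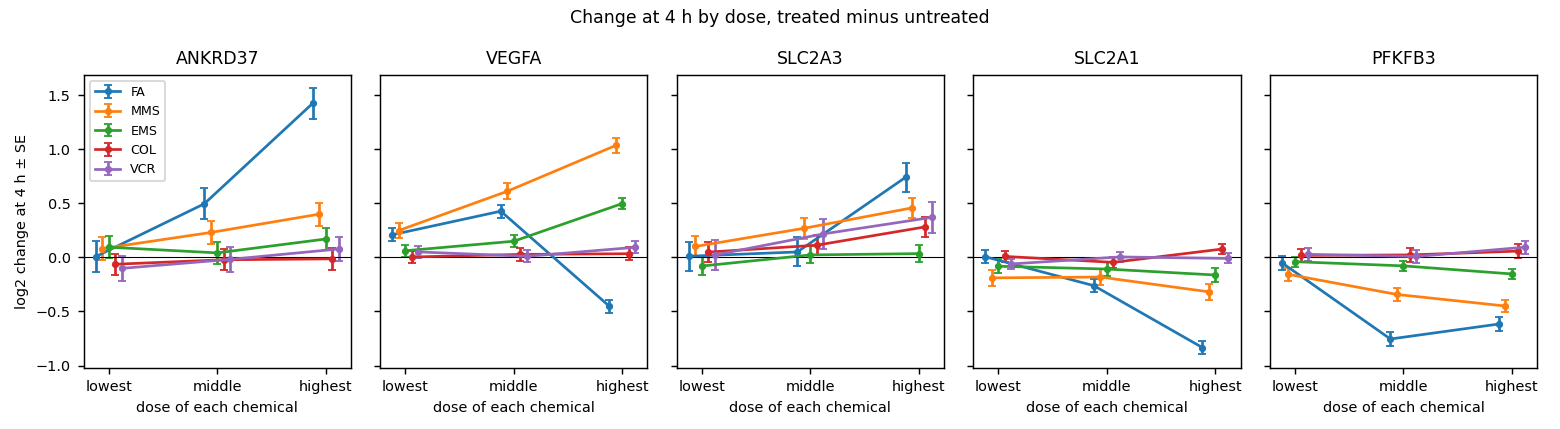
Log2 change at 4 h (treated minus untreated, ± SE, n = 3) of ANKRD37, VEGFA, SLC2A3, SLC2A1 and PFKFB3 at the lowest, middle and highest dose of each chemical. ANKRD37 climbs with FA to 1.42, VEGFA climbs with MMS to 1.03 and turns down at the highest FA dose, and SLC2A1 and PFKFB3 lie lowest at the upper doses of FA and MMS.

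The change at the highest dose was also compared between the times. It was lower at 24 h than at 4 h for 26 members and higher for 4 with FA (all genes 27.5% and 25.8%), and for 27 and 1 with MMS (19.7% and 25.6%). With EMS 24 were lower (16.9%), with colcemid 20 (12%) and with vincristine 21 (12.4%), and none was higher. ANKRD37 differed most with FA (-2.72 ± 0.202) and HK2 with MMS (-2.24 ± 0.0863).

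Other genes of these pathways, from lists written out with the members, were counted in the same way at 24 h. As given above, 23.9% of all tested genes fell and 23.8% rose with FA, 27.7% and 30.8% with MMS, 23.6% and 27.8% with EMS, 18.3% and 18% with colcemid and 18.2% and 17.5% with vincristine, and a count near these shares is not a result about a list. Among 18 tested genes known to be hypoxia-inducible and outside the members, 6 fell and 5 rose with FA, 7 and 4 with MMS, 7 and 7 with EMS, 4 and 5 with colcemid and 6 and 3 with vincristine. The list's medians were -0.13, -0.044, -0.023, 0.015 and -0.019. MIR210HG, the RNA from which the hypoxia-induced miR-210 is cut, fell most, by -2.28 ± 0.179 with MMS and -2.36 ± 0.118 with vincristine. It was higher in untreated cells at 24 h than at 4 h in all 5 sets (1.87, 2.33, 1.99, 1.45 and 1.90 for FA, MMS, EMS, colcemid and vincristine). PGM1, phosphoglucomutase, fell with all 5 chemicals (-0.99, -1.13, -0.80, -0.61 and -0.70). MXI1, a MAX-binding repressor, rose with all 5 (0.91, 0.50, 0.84, 0.67 and 0.51), although it is also listed as hypoxia-inducible.

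Of 8 tested regulators of the HIF pathway, 3 rose and 2 fell with FA, 2 and 1 with MMS, 3 and 2 with EMS, 4 and 1 with colcemid and 3 and 1 with vincristine, with medians of -0.012, 0.052, 0.059, 0.11 and 0.069. HIF1A, an oxygen-regulated subunit itself, rose with all 5 (0.54, 0.95, 0.57, 0.21 and 0.26), while its partner ARNT fell with FA, colcemid and vincristine (-0.41, -0.19 and -0.31). CITED2, a protein that keeps HIF from its coactivators, rose with FA (1.37 ± 0.074), colcemid (0.68 ± 0.0708) and vincristine (0.39 ± 0.0768). The arrays measure RNA, not HIF protein. Of 16 tested remaining genes of glycolysis and pyruvate use, 5 fell and 4 rose with FA, 8 and 3 with MMS, 6 and 2 with EMS, 1 and 4 with colcemid and 6 and 3 with vincristine (medians -0.083, -0.17, -0.069, -0.0067 and -0.090). TIGAR, whose enzyme lowers the fructose bisphosphate that drives phosphofructokinase, rose with all 5 (1.5, 2.20, 1.68, 1.18 and 0.71). DLAT and PDHB, subunits of pyruvate dehydrogenase, changed by -1.0 ± 0.0612 and -1.02 ± 0.0481 with MMS.

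In the pentose phosphate pathway, which branches off after hexokinase, 6 of 6 tested genes fell with FA, 3 with MMS, 2 with EMS, 3 with colcemid and 2 with vincristine, and none rose (medians -0.27, -0.19, -0.048, -0.089 and -0.041). RPIA changed by -0.68 ± 0.0463 with MMS and TALDO1 by -0.55 ± 0.0529 with FA. Of 11 tested genes of the citrate cycle, 5 fell with FA, 7 with MMS, 5 with EMS and 3 with each aneugen, and 3 rose with MMS and with EMS (medians -0.12, -0.23, -0.053, -0.056 and -0.089). SDHA, a subunit of succinate dehydrogenase, rose with MMS (0.69 ± 0.0527) and fell with vincristine (-0.48 ± 0.0508). MYC, an activator of glycolytic genes, fell with MMS (-1.86 ± 0.06), EMS (-1.01 ± 0.0511) and colcemid (-0.17 ± 0.0465), and was not called with FA (-0.092) or vincristine (-0.10). MXD1, a repressor that competes with MYC for MAX, rose with all 5 (1.98, 2.91, 2.01, 0.64 and 0.79). The list of regulators that holds both had 4 of 5 tested genes higher with FA and with EMS and 3 with the others, and CDKN1A and MDM2, genes of the DNA damage response, were among those higher with each chemical. Its medians were 1.93, 2.25, 1.93, 0.64 and 0.77.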

How the data were processed

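RNA of TK6 cells was measured on Affymetrix HG-U133 Plus 2 arrays, 1 sample per array, 120 arrays in all. The deposited table holds log2 values, made by the authors with RMA (background correction, quantile normalization and probe set summary), per the submitters' processing notes; the software and its version are not given in the sources used here. Of 54675 probe sets, 62 controls were left out, and the platform table gives 41091 of the rest 1 gene symbol, 1801 several and 11721 none. For each of 19775 genes the single-symbol probe set of highest mean was kept. The test took the 14023 genes that reached 6.1835, the median of all probe sets' mean values, on 3 or more arrays. The probe sets of ALDOA, PFKL and GAPDH carry probes that can match other transcripts. Array medians differed little, and the total read depth of sequencing has no counterpart here: precision is set by the 3 arrays per group.

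Each chemical's 24 arrays were fitted with 8 group means in limma 3.58.1 (R 4.3.3), and the classes were compared in one fit of the 96 arrays other than those of FA. Tests are two-sided moderated tests with Benjamini-Hochberg adjustment over all tested genes of a comparison, called at an adjusted p under 0.05. The fit was also run on simulated data with known changes. Their deviations were drawn independently for each array, so they leave out the shared deviations of an experiment given below. Samples were grouped by the labels' chemical, dose and time. The members and lists were chosen with earlier results of these data known. Any member may be named, and values per array are given for the members with the largest called changes in each role group, and of other lists up to 4 called genes per comparison are named. CITED2, ARNT, SDHA, MYC, MXD1, MXI1, PGM1 and TIGAR are named in comparisons beyond that number to complete a series over the chemicals, which was decided after their values were seen.

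Arrays of the same experiment number deviated together, with mean correlations of their deviations from the group means above 0 in 29 of 30 treated and untreated pairs of groups, a median of 0.285 and a range of -0.132 to 0.509, and every pair exceeded 0.1 in 19 of them. The numbers in the labels name experiments, and the counts that a block on them moves by over 1.5 times are given beside the results. Alternatives were the experiment as a block, no filter, the mean of a gene's probe sets, each other probe set, repeated quantile normalization, a single fit of the 120 arrays, leaving out each experiment in turn, and the untreated FA array of experiment 3 at 4 h left out. Figures were drawn with matplotlib 3.10.9 under Python 3.11.15.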

Additional observations from a re-analysis of the deposited data

Results flagged for a closer look

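The change at the highest dose differed between 24 h and 4 h, by the test of that difference in limma, for 30 of 34 members with FA, 28 with MMS, 24 with EMS, 20 with colcemid and 21 with vincristine. The classes differed for 27 members at 24 h and 9 at 4 h.

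Some members were called in opposite directions at the 2 times, higher at 4 h and lower at 24 h in each case. With FA the difference of the changes (24 h minus 4 h, log2) was -2.72 for ANKRD37, -1.32 for BNIP3, -1.25 for ALDOC, -0.86 for GPI, -0.66 for BNIP3L, -0.60 for PFKM, -0.58 for PFKL, -0.48 for NDRG1, -0.40 for PGK1 and -0.26 for TPI1. With MMS it was -2.15 for ANKRD37, -1.36 for VEGFA and -0.52 for PDK3. With EMS it was -0.75 for KDM3A and -0.48 for BNIP3L. The lower calls at 24 h of PDK3 with MMS and of BNIP3L with FA and EMS were not found with other probe sets of these genes. For VEGFA with MMS at 24 h the other probe sets gave 0.17 (called higher), -0.12 (not called) and -0.26 (called lower). The higher calls of PFKM, PGK1 and BNIP3L at 4 h with FA were lost without the untreated array of experiment 3.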

How the results depend on the processing

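Of 318 calls of single members, the experiment as a replicate block kept all 318, and with all arrays in one fit 8 lost significance, 18 without the filter on dim genes (more genes were tested), 7 with repeated quantile normalization and 27 with the mean of a gene's probe sets, where 8 turned. Other probe sets of the members kept 212 values, lost the call in 76 and turned in 44. Leaving out an experiment lost 58, 51 and 47 calls (experiments 1, 2 and 3), with fewer arrays in each fit. The correlations behind the block are given with the processing, and no call was weaker with it. Signals above 13 lay near the top of the scale, and whether the changes of those 7 members are compressed was not tested. The causes of the shifts below were not tested.

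With the block, members called became 1 for 50 µM FA at 4 h (VEGFA, against 0), 10 for 100 µM FA at 24 h (against 4), 2 for the highest colcemid dose at 4 h (SLC2A3 and KDM3A, against 0) and 1 for the highest vincristine dose at 4 h (SLC2A3, against 0). All arrays in one fit gave 1 at 50 µM FA and 1 at 80 µM MMS at 4 h (VEGFA in both, against 0) and 13 at 100 µM FA at 24 h. Repeated quantile normalization gave 8 at 100 µM FA at 24 h, 1 at 80 µM MMS (VEGFA) and 1 at the highest colcemid dose (KDM3A) at 4 h, and 9 against 5 between the highest and lowest colcemid dose. No filter left 2 (PFKFB4 and BNIP3) at 100 µM FA at 24 h. The mean of probe sets gave 4 against 7 at 160 µM MMS, 3 against 5 at 4 mM EMS and 5 against 9 between the classes, all at 4 h. With an experiment left out, the counts called, from the lowest to the highest dose that called any, at 24 h were FA 0 to 1 (against 4), 25 to 28 (against 29), then MMS 4 to 8 (against 10), 25 to 26 (against 27), 25 to 28 (against 28), then EMS 5 to 9 (against 13), 20 to 22 (against 23), 23 to 24 (against 26), then colcemid 21 to 22 (against 24), 21 to 22 (against 23), 19 to 22 (against 23), then vincristine 21 to 22 (against 25), 21 to 22 (against 26), 22 to 23 (against 26). At 4 h they were FA 7 to 13 (against 14), 15 to 17 (against 20), then MMS 3 to 4 (against 7), 9 to 11 (against 12), then EMS 2 (against 5). Between the times they were 25 to 27 (against 30) with FA, 24 to 26 (against 28) with MMS, 23 to 25 (against 24) with EMS, 16 (against 20) with colcemid, 17 to 18 (against 21) with vincristine. For untreated cells over time they were 18 to 21 (against 25) with FA, 18 to 19 (against 21) with MMS, 18 to 20 (against 21) with EMS, 14 to 20 (against 25) with colcemid, 16 to 18 (against 21) with vincristine. For the highest against the lowest dose they were 25 to 26 (against 26) with FA, 24 to 26 (against 27) with MMS, 23 to 26 (against 27) with EMS, 1 to 2 (against 5) with colcemid, 0 to 1 (against 3) with vincristine. For the highest dose at 24 h against untreated cells at 4 h they were 17 to 21 (against 23) with FA, 22 to 24 (against 25) with MMS, 24 to 27 (against 26) with EMS, 12 to 14 (against 16) with colcemid, 9 (against 13) with vincristine. Between the classes they were 23 to 26 (against 27) at 24 h and 6 to 7 (against 9) at 4 h, and for the comparisons at 0 they stayed at 0.

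Values that turned are log2 changes. At 4 h with 200 µM FA, PKM gave -0.37 with the mean of its probe sets and -1.15 with the other probe set, and VEGFA 0.0078, 0.19 and 0.093 with its others. At 4 h with 320 µM MMS the other PDK3 probe sets gave -0.065, -0.22 and -0.023, and between the classes -0.068, -0.16 and -0.044. At 24 h with 200 µM FA, other probe sets gave 0.21 for HK2, 0.13 for PFKP, 0.0047 for PDK3, 0.068 for BNIP3L and -0.14 for PKM, whose mean gave -0.0049. With 320 µM MMS they gave -0.12 for SLC2A3, 0.17 for VEGFA and 0.22, 0.0017 and 0.15 for PDK3, whose mean gave 0.023. With 4 mM EMS BNIP3L gave 0.22, and 0.0091 as the mean, with colcemid PFKP gave 0.034, and with vincristine HK2 gave 0.12 and 0.12. In untreated cells (24 h minus 4 h) the other HK2 probe sets gave -0.42 and -0.35 in the FA set, -0.32 and -0.54 in the MMS set, -0.24 and -0.25 in the EMS set, -0.17 and -0.11 in the colcemid set and -0.34 and -0.40 in the vincristine set, and the HK2 mean gave -0.034, -0.11 and -0.045 in the FA, MMS and vincristine sets. There too, PFKP gave -0.073, PGK1 -0.025 and PKM 0.0058 in the FA set, ALDOA -0.020 in the MMS set, PKM 0.071 and PDK3 0.31, 0.34 and 0.30 (mean 0.13) in the colcemid set, and PGK1 -0.033 and -0.030 in the vincristine set.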
